A study of Mus musculus with 8 samples.

Results

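Genes of DNA replication and mitosis were examined in sorted lung mesenchyme after deletion of Hhip. The set comprised 37 genes, picked by symbol for their place in S, G2 or M phase, out of 31607 genes in the authors' deposited table. Of these, 22 act mainly in mitosis and 15 in DNA replication or its onset. Each of the 37 matched exactly 1 entry, and all 37 were among the 17469 genes to which the authors gave an adjusted p-value. None of the 37 passed an adjusted p of 0.05 in either direction, against 6.98% of all tested genes.

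The data are bulk RNA sequencing of lung mesenchyme from adult mice, with 4 HhipCKO and 4 Control libraries. HhipCKO mice carried Hhipflox/flox with creER drivers, among them Myh11creER, and Control mice carried Hhipflox/flox alone. Mice were injected with Tamoxifen, which activates a creER recombinase. The Myh11 promoter is active in smooth muscle. Because Myh11creER was not the only driver, deletion need not have been confined to smooth muscle. The drivers and the loss of Hhip come together in these groups and cannot be told apart. Live cells negative for CD45, CD31 and Epcam were sorted, per the series' design text, whereas the extraction protocol speaks of cultured cells. Whether the cells divided in culture before RNA was taken is therefore not known, and this bears on every level given here. Nothing states that the libraries of a group came from separate animals, so p-values measure the spread among these libraries, which may in part be technical. The deposited table holds 1 comparison and no value per library, so levels in single libraries and overlap between the groups cannot be shown.

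Hhip, which encodes a membrane protein that binds and sequesters hedgehog ligands, checked the labels. Its log2 fold change was -2.62 ± 0.32 (SE; the authors' deposited table gives an adjusted p of 9.55e-13). Mesenchymal markers were abundant, with a median of 102365 mean normalized counts per kilobase over 8 genes. The medians were 322 for 14 leukocyte markers, 139 for the 8 tested of 9 endothelial markers and 2495 for 9 epithelial markers, and no marker of these lists had a mean of 0. The 37 genes made up 0.0224% of the mean normalized counts summed over all genes.

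A dividing cell first licenses its replication origins, then copies its DNA in S phase, and finally separates the copies in mitosis. Licensing loads a ring of Mcm proteins on the origins in G1, and cyclin E with E2f1 opens S phase. Mitosis is started by cyclin B with Cdk1 and ended when the anaphase-promoting complex destroys cyclin B. In cells that have left the cycle, transcripts of the mitotic group are held low by repressor complexes at their promoters. Transcripts such as Pcna and the Mcm genes can persist in cells that do not divide, and Pcna also serves in DNA repair. In the adult lung most mesenchymal cells are at rest. In bulk RNA, fewer cells of a type and less RNA per cell cannot be told apart, and a low level does not say which holds.

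The mitotic genes were scarce. Levels were compared per kilobase, as the mean normalized count over all libraries in the authors' deposited table divided by the length of the longest annotated transcript. All 22 mitotic genes lay below the median of tested genes, 623 per kilobase. The percentiles of these 22 genes among all tested genes ran from 2.73 to 28.2. Ccnb2, a B-type cyclin, was the most abundant of them at 182 per kilobase, and Cenpf, a large kinetochore protein, the least at 17.8. Cdk1, the kinase that drives entry into mitosis, stood at 23.7 per kilobase and Ccnb1, its main cyclin partner, at 39.8. Mki67, the nuclear protein whose antibody stain is the usual marker of cycling cells, had 75.4 per kilobase, and Top2a, the topoisomerase that untangles replicated chromosomes, had 92.9.

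Replication genes spanned a wider range of levels. Pcna, the sliding clamp of the DNA polymerases, was the most abundant at 3589 per kilobase and lay at percentile 88.1 of tested genes. Next came the helicase subunits Mcm4 at 1452 and Mcm7 at 776 per kilobase, and Rrm1, the large subunit of ribonucleotide reductase, at 644. These 4 were the members above the median of tested genes. Rrm2, the small subunit of the same enzyme, whose message is known to be made chiefly in S phase, was at 148 per kilobase. At the low end of the replication group stood Ccne1, cyclin E1, with 56.7 per kilobase and the licensing factor Cdc6 with 65.5. Among transcripts of the helicase subunits, the level per kilobase ran from 167 for Mcm5 to 1452 for Mcm4. The protein ring holds single copies of each subunit, but protein was not measured here. E2f1, the transcription factor of the G1 to S step, had 380 per kilobase. The plot of levels per kilobase shows the red mitotic points filling the low end.

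**Figure D1:**
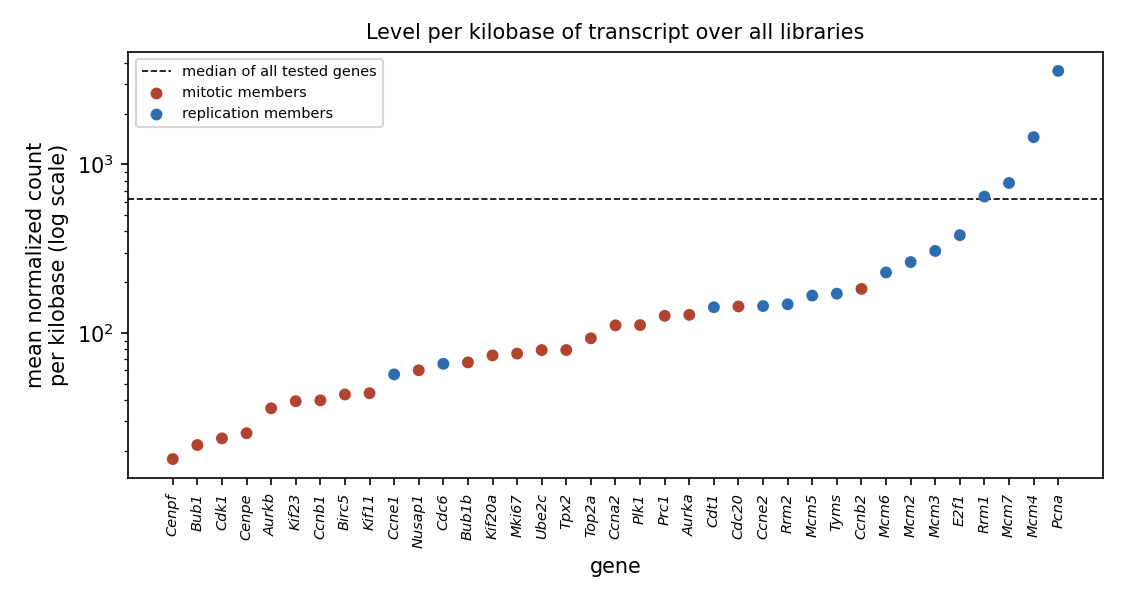
Mean normalized count per kilobase of transcript over all 8 libraries (log axis) for each of the 37 genes, in rising order, with the median of all tested genes as a dashed line. Points have no error bars because the table gives 1 mean per gene. All 22 mitotic genes lie below the line, and Rrm1, Mcm7, Mcm4 and Pcna lie above it.

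Some levels may include reads of other genes, because the counting tool and its strand setting are not given in the sources used here. Kif20a, a kinesin of cytokinesis, shares 1271 exonic bases with Cdc23 on the other strand, and Cdc23 had a mean normalized count of 6551 against 270.3 for Kif20a in the authors' deposited table. Prc1 shares 911 bases with Rccd1, Ccne2 shares 609 with Ints8 and Ube2c shares 592 with Tnnc2, in each case on opposite strands. Mcm7 shares 321 bases with Ap4m1 and 64 with Cops6, also on opposite strands. Their means were 3454 and 5046 against 2298 for Mcm7 in the authors' deposited table. Nusap1 shares 172 bases with Oip5, and Cdc20 shares 53 with Elovl1, again on opposite strands. Ccna2 shares 510 bases with Exosc9 on the other strand, and Exosc9 had a log2 fold change of 0.59 ± 0.15 (SE; the authors' deposited table gives an adjusted p of 0.00492). Processed copies exist too. Ccnb2-ps had a mean of 274 beside 279 for Ccnb2, and Pcna-ps2 had 1290 beside 5448 for Pcna, in the authors' deposited table. How reads were divided within these pairs was not tested, so the levels and fold changes of these members are uncertain.

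Promoters of the mitotic and the replication genes shared the CCAAT box as their commonest element of those searched, while the shares with TTTGAA or an E2F site were unequal, a description without a test. They are shown because both groups are described side by side throughout. Promoter windows of 250 bases before and 50 after the start were taken from RefSeq (GRCm38.p6) for the 31 genes with an entry, 18 mitotic and 13 replication. Both strands were searched for the cell cycle homology region TTTGAA, an element read by repressor and activator complexes of mitotic genes. Of 19 mitotic windows 14 held it, or 73.7%, against 1 of 14 replication windows, 7.14%, and 17.9% of all 32851 windows. The CCAAT box, bound by the factor NF-Y and searched by the letters of its name, was in 17 mitotic windows (89.5%), in 9 replication windows (64.3%) and in 37.4% of all windows. E2F sites were searched as TTTCCCGC, TTTGGCGC, TTTCGCGC and TTTGCCGC, and matches of these spellings can overlap each other but hold neither of the other elements. They were in 1 mitotic window (5.26%), 6 replication windows (42.9%) and 2.26% of all windows. A match describes letters and does not show that a factor was bound in these cells.

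Windows of 120 bases ending just before the start are given for 3 mitotic genes with a TTTGAA element near the start and for Mcm6, the replication gene with the widest error. Capitals mark the TTTGAA element, the CCAAT box or an E2F site on either strand. Cdc20, the activator of the anaphase-promoting complex, reads from chr4:118437344-118437463 on the minus strand, Kif11, the motor that pushes spindle poles apart, from chr19:37376262-37376381 on the plus strand, Top2a from chr11:99024190-99024309 on the minus strand and Mcm6 from chr1:128359706-128359825 on the minus strand.
Cdc20: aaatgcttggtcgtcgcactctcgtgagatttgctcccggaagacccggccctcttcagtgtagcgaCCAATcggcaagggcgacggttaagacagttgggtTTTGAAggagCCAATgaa
Kif11: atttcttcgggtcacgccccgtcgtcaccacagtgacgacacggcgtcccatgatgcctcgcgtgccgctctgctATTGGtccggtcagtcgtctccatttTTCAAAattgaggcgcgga
Top2a: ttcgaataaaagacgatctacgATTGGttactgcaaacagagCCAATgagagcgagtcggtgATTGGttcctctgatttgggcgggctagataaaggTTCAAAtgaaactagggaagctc
Mcm6: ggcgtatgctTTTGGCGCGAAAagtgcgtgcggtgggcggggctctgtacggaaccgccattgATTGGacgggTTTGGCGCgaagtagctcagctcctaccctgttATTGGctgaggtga
In the mitotic windows the TTTGAA element begins 18, 19 and 23 bases before the start for Cdc20, Kif11 and Top2a. A CCAAT box lies further upstream in each, at 53, 45 and 58 bases. Cdc20 holds another box at 8 bases, between its TTTGAA element and the start, and Top2a holds more at 98 and 78 bases. The Mcm6 window has no TTTGAA and holds 3 E2F matches, of which a pair overlaps at 110 and 106 bases before the start.

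The comparison of HhipCKO with Control asked whether loss of the hedgehog inhibitor altered the cycling transcripts of the mesenchyme. Of the 37 genes, 0 rose and 0 fell at an adjusted p of 0.05 by the authors' Wald test, against 6.98% of all tested genes in either direction. At an unadjusted p of 0.05 the count was also 0 of 37, against 21.8% of all tested genes. The smallest unadjusted p among the 37 was 0.176, that of Ccne2. All 37 of the 95% intervals for the fold included 1. A p that misses the threshold does not show that a gene was equal in both groups, and the intervals that follow say how large a difference each gene could still have.

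Among the markers of cycling cells, values were positive but loosely measured. Mki67 had a log2 fold change of 0.47 ± 0.60 (SE; the authors' deposited table gives an adjusted p of 0.710). Expressed as group levels implied by the mean and the fold change, that is 635 normalized counts in Control and 882 in HhipCKO. Top2a had 0.46 ± 0.57 (SE; the authors' deposited table gives an adjusted p of 0.703), or 409 in Control and 561 in HhipCKO. With 95% intervals from 0.612 to 3.15-fold for Mki67 and from 0.636 to 2.96-fold for Top2a, both intervals held no difference as well as a doubling.

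The cyclins and kinases of mitosis had 6 positive values and 1 negative value. Aurkb, the kinase of the chromosomal passenger complex, had 0.54 ± 0.63 and Cdk1 had 0.45 ± 0.46 (log2 fold change, SE) in the authors' deposited table. The implied levels of Cdk1 were 87.7 in Control and 119 in HhipCKO, at an adjusted p of 0.630 by the authors' Wald test. Aurka, the centrosomal kinase, was the best measured of those with a positive value, at 0.39 ± 0.29 (SE; the authors' deposited table gives an adjusted p of 0.466), a fold of 1.31 with an interval from 0.882 to 1.94. Implied levels of Aurka were 211 in Control and 276 in HhipCKO. Ccnb1 had 0.33 ± 0.55 and Ccnb2 had 0.27 ± 0.34 (log2 fold change, SE) in the authors' deposited table. For Ccnb1 these correspond to 87.9 in Control and 110.1 in HhipCKO, with an interval from 0.596 to 2.63-fold. The S and G2 cyclin Ccna2 stood at 0.06 ± 0.36 in the authors' deposited table. Plk1, a kinase that acts from mitotic entry to cytokinesis, had -0.08 ± 0.31 (log2 fold change, SE) in the authors' deposited table.

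Values were positive for all 4 genes of the spindle checkpoint and of anaphase, and those of Bub1b and Bub1 were the highest of the mitotic group. Bub1b, a checkpoint protein that holds back Cdc20, had 0.64 ± 0.56 (SE; the authors' deposited table gives an adjusted p of 0.552), with implied levels of 192 in Control and 299 in HhipCKO. Bub1, a checkpoint kinase at the kinetochore, had 0.60 ± 0.89 (log2 fold change, SE) in the authors' deposited table, with an interval from 0.451 to 5.07-fold, the widest among the mitotic genes. Cdc20 had 0.49 ± 0.37 (SE; the authors' deposited table gives an adjusted p of 0.468), and Ube2c, the ubiquitin-conjugating enzyme of the same complex, had 0.25 ± 0.43. The implied levels of Cdc20 were 214 in Control and 301 in HhipCKO. At the kinetochore, the microtubule-binding proteins Cenpf and Cenpe had 0.59 ± 0.68 and 0.32 ± 0.57 (log2 fold change, SE) in the authors' deposited table. Birc5, the passenger protein survivin, had the lowest value of all 37 genes, -0.13 ± 0.29 (SE; the authors' deposited table gives an adjusted p of 0.852). Its interval, from 0.619 to 1.36-fold, was among the narrower ones of the mitotic group.

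The 6 genes of the spindle and of cytokinesis all had positive values, from 0.13 to 0.50 on the log2 scale. Kif23, a motor of the central spindle, was the highest of them at 0.50 ± 0.61 and Kif11 the lowest at 0.13 ± 0.48 (log2 fold change, SE) in the authors' deposited table. Between them lay Tpx2, which seeds microtubules around chromosomes, Kif20a, Nusap1, a microtubule bundler, and Prc1, which cross-links the central spindle.

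Replication genes lay closer to no difference and were measured more tightly. Mcm4 had a log2 fold change of 0.0013 ± 0.099 (SE; the authors' deposited table gives an adjusted p of 0.996), with implied levels of 5207 in Control and 5212 in HhipCKO. Its 95% interval ran from 0.875 to 1.14-fold. Mcm7 had -0.05 ± 0.12, Mcm5 -0.06 ± 0.18, Mcm2 0.12 ± 0.18 and Mcm3 0.13 ± 0.16 (log2 fold change, SE) in the authors' deposited table. Implied levels of Mcm2 were 882 in Control and 958 in HhipCKO, with an interval from 0.845 to 1.39-fold. Pcna had 0.0082 ± 0.17 (SE; the authors' deposited table gives an adjusted p of 0.986), with an interval from 0.796 to 1.27-fold. Both Mcm4 and Pcna took a negative sign when fold changes were centred on their median, at -0.018 and -0.011, so neither has a direction.

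Of the enzymes that supply deoxynucleotides, Rrm1 had the tightest interval of all 37 genes, from 0.920 to 1.19-fold, around a log2 fold change of 0.06 ± 0.09 (SE; the authors' deposited table gives an adjusted p of 0.756). Tyms, thymidylate synthase, had 0.08 ± 0.16 and Rrm2 had 0.10 ± 0.31 (log2 fold change, SE) in the authors' deposited table. The licensing factors Cdc6 and Cdt1, which bring the helicase to origins, had -0.12 ± 0.26 and 0.26 ± 0.36 in the authors' deposited table. Among the G1 to S regulators, Ccne2, cyclin E2, had the smallest adjusted p of all 37 genes, 0.456, at a log2 fold change of 0.38 ± 0.28 (SE) in the authors' deposited table. Implied levels of Ccne2 were 378 in Control and 490 in HhipCKO. Its close relative Ccne1 had 0.25 ± 0.48 (SE; the authors' deposited table gives an adjusted p of 0.819). E2f1 had -0.05 ± 0.19 (SE; the authors' deposited table gives an adjusted p of 0.926).

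**Figure D2:**
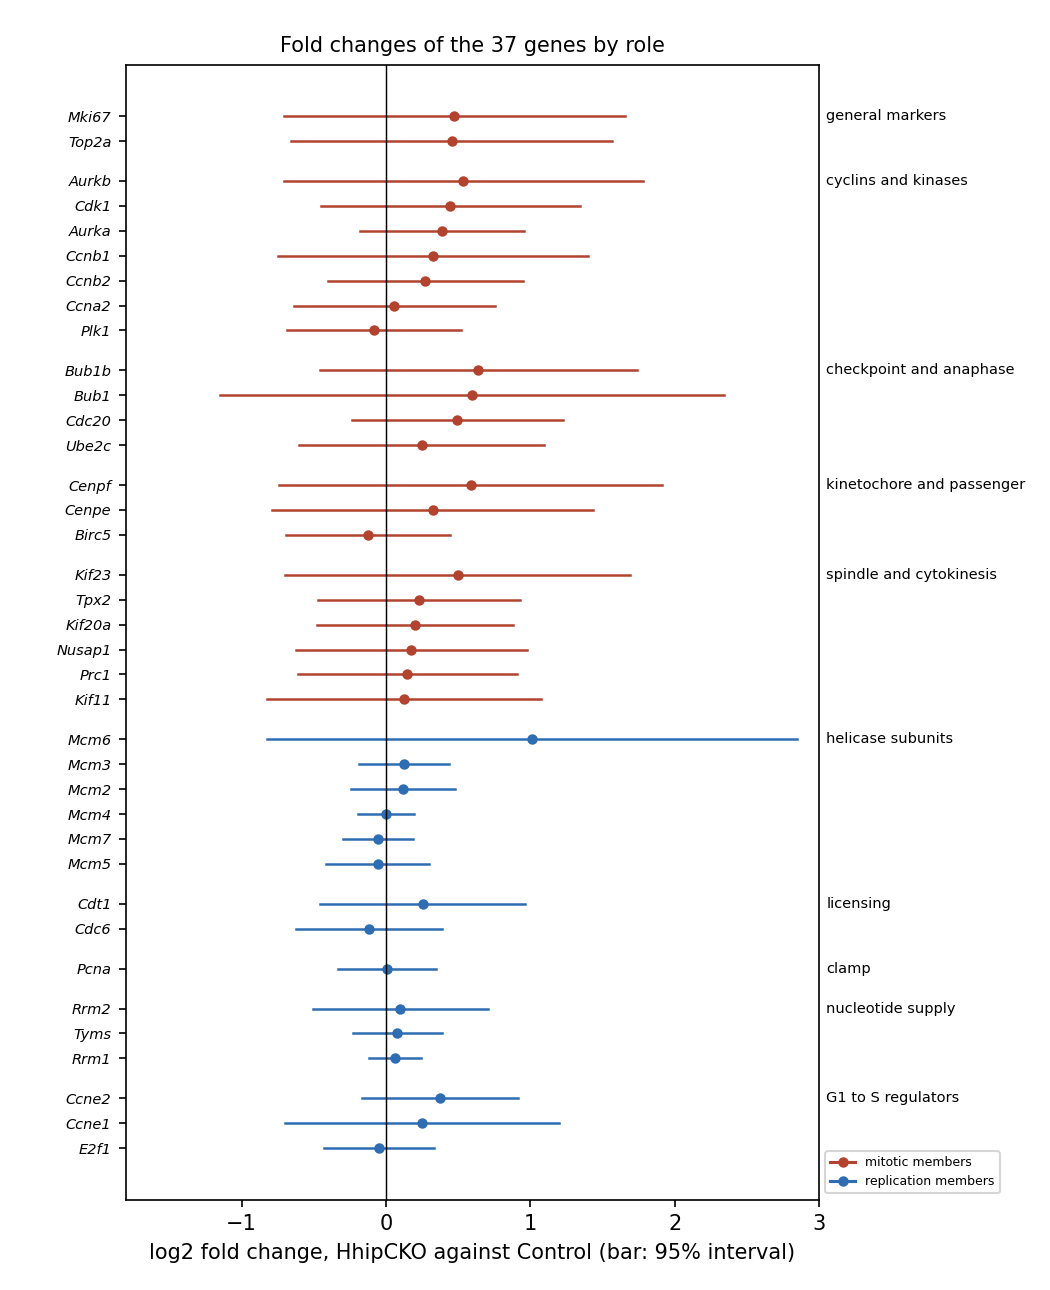
Points give the log2 fold change of HhipCKO against Control (x axis) and bars its 95% interval for the 37 genes, grouped by role, from the authors' fit of 4 against 4 libraries. Every bar crosses 0, the bars of most replication genes are shorter than those of the mitotic genes, and Mcm6 has the longest bar.

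Taken as groups, 20 of the 22 mitotic genes and 11 of the 15 replication genes had positive values, against 52.7% of all tested genes. The median log2 fold change was 0.32 for the mitotic genes and 0.08 for the replication genes, against 0.019 for all tested genes. These are descriptions without a test. Mitotic genes are transcribed together in the same cells, so their values are not independent of each other. The median of all 37 was 0.23, and that of the 11 members whose mean normalized count reached 500 was 0.063. Those 11 are 10 replication genes and Mki67, so the lower median goes with a different make-up of the group.

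The plot of mean count against fold change sets the 37 genes among all tested genes. The mitotic points lie at low counts, where the vertical scatter of all genes is wide.

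**Figure D3:**
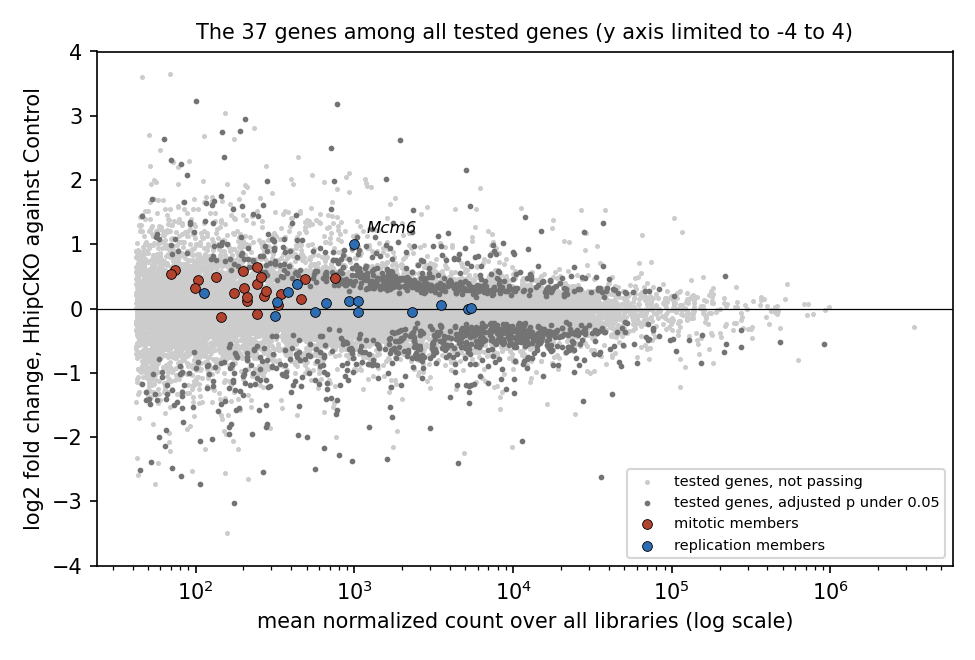
Log2 fold change of HhipCKO against Control against the mean normalized count (log axis) for the 17469 tested genes, with the 22 mitotic and 15 replication genes as coloured points and genes past an adjusted p of 0.05 in dark grey. The coloured points lie among the light grey genes that did not pass, and Mcm6 stands apart at 1.01.

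The estimated change that a gene needed in order to pass differed sharply between the groups. These sizes refer to the estimate, and a true difference of the same size could still miss the threshold. The smallest Wald statistic that passed in the authors' deposited table was 2.92 in size, so a gene's log2 fold change had to exceed 2.92 times its SE. For the 22 mitotic genes this required a median of 2.47-fold, and 3 of them (Aurka, Birc5 and Plk1) would have passed with a change under 2-fold. For the 15 replication genes the median was 1.45-fold, and 12 would have passed with a change under 2-fold and 9 under 1.5-fold. Over all tested genes the median was 1.48-fold. Rrm1 needed 1.21-fold, Mcm4 1.22-fold and Pcna 1.42-fold, whereas Mki67 needed 3.39-fold and Bub1 6.07-fold. The 95% interval lay within 1.5-fold in either direction for 9 replication genes and 0 mitotic genes, and reached above 2-fold for 13 mitotic genes and 2 replication genes.

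The mitotic genes also had a wide spread among libraries beyond counting noise. From each SE and mean, the coefficient of variation (CV) among libraries of a group was derived, under a negative binomial model with equal library factors. The median CV was 42.8% for the mitotic genes and 17.8% for the replication genes, against 18.6% for all tested genes. Between the lowest and the highest mean of the mitotic genes lay 5089 tested genes with a median CV of 29.8%, and 19 of the 22 mitotic genes exceeded it. For the replication genes, 7 of 15 exceeded the median of 18.8% over the 10489 tested genes in their range of means. Mki67 had a CV of 59.0%, Top2a 55.3% and Cenpf 65.9%, while Birc5 had 27.2% and Aurka 27.7%. Which libraries were high or low cannot be read from the table, and fits of this kind generally pull each gene's spread towards that of genes with like means.

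**Figure D4:**
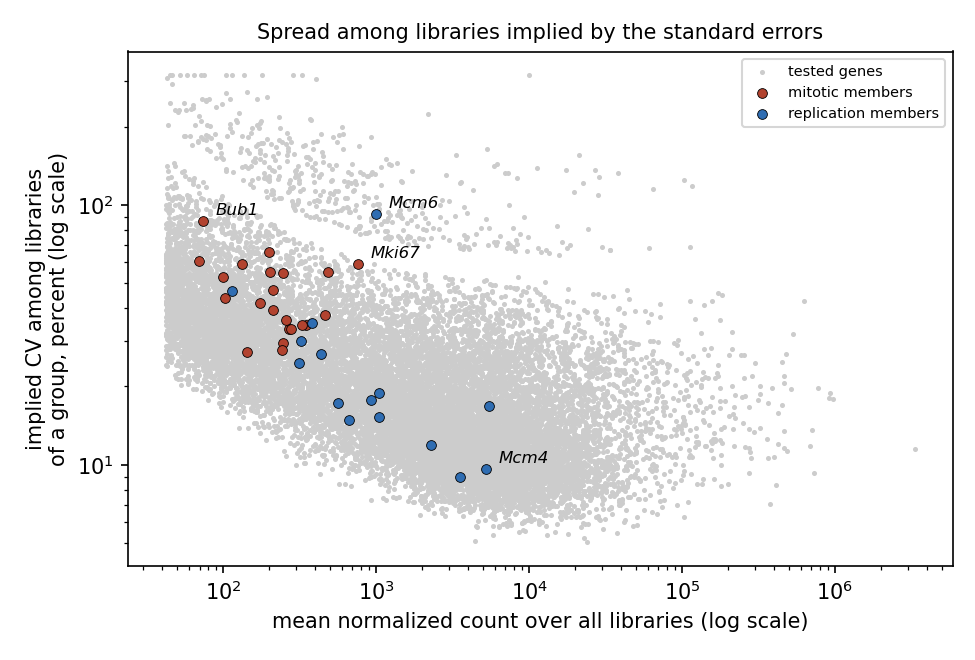
CV among libraries of a group implied by the SE (log axis, percent) against the mean normalized count (log axis) for all tested genes, with the mitotic and replication genes coloured. Most mitotic points lie in the upper part of the cloud at their counts, and Mcm6, at 91.9%, stands far above the other helicase subunits.

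Mcm6 had a wider spread than any other subunit of its complex. Its log2 fold change was 1.01 ± 0.94 (SE; the authors' deposited table gives an adjusted p of 0.581), the highest value of the 37 genes, with implied levels of 660 in Control and 1330 in HhipCKO. The interval ran from 0.564 to 7.21-fold. Its implied CV of 91.9% lay at percentile 97.7 of all tested genes, whereas Mcm2, Mcm3, Mcm4, Mcm5 and Mcm7 had CVs between 9.59 and 17.8%. On GRCm38 Mcm6 occupies chromosome 1, positions 128331590 to 128359664, minus strand, and no other annotated gene shares its exonic bases. Its nearest tested neighbours, Ubxn4 and Dars, had CVs of 11.1 and 12.8% and stood at -0.08 ± 0.11 and 0.23 ± 0.13 (log2 fold change, SE) in the authors' deposited table. Without Mcm6 the median of the replication genes was 0.072 and their highest value was 0.38. The promoter printed above gives the reference letters only, and whether a single library carried the high Mcm6 count was not analysed here.

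Other genes of the cycle were taken from wider lists. Of 62 tested S phase genes outside the set, 3 rose, 0 fell and 59 did not pass, against 3.06% of all tested genes higher and 3.92% lower. Dut, which removes dUTP so that uracil is kept out of DNA, rose 1.54-fold with an interval from 1.33 to 1.77 and a log2 value of 0.62 ± 0.11 (SE; the authors' deposited table gives an adjusted p of 2.72e-06). Rpa2, a subunit of the single-strand DNA-binding complex, rose by a log2 value of 0.52 ± 0.14 (SE; the authors' deposited table gives an adjusted p of 0.00598). Tipin, a fork protection factor, rose by 0.46 ± 0.13 (SE; the authors' deposited table gives an adjusted p of 0.0151). Longer transcripts tended to have lower fold changes (Spearman's rho of -0.329 over all tested genes, which are not independent replicates). Once that trend was taken out, the adjusted p was 0.0779 for Rpa2, 0.138 for Tipin and 0.000396 for Dut, so Dut alone still passed. None of the 3 passed with Wald statistics scaled down by their robust SD, where the adjusted p of Dut was 0.0719. The list's median was 0.084, with 42 positive and 20 negative values, near the 0.080 of the replication genes.

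Of 64 tested G2 and M genes outside the set, 0 rose and 0 fell by the authors' Wald test, and 5 had an unadjusted p under 0.05. Over all tested genes 3.06% were higher and 3.92% lower at the adjusted threshold, and 21.8% had an unadjusted p under 0.05. The list's median was 0.24, with 49 positive and 15 negative values, and its median implied CV was 34.1%. The smallest adjusted p were those of Ckap5, a microtubule polymerase, at -0.19 ± 0.08 (adjusted p = 0.133), Stmn1, a tubulin-binding protein, at 0.54 ± 0.23 (0.144), and the checkpoint gene Mad2l1 at 0.26 ± 0.11 (0.147), as log2 fold change and SE in the authors' deposited table. Mad2l1 passed once the length trend was taken out, with a value of 0.45 and adjusted p of 0.00683, and its longest annotated transcript of 7557 bases sets the correction. A further 6 genes of this list had means too low for an adjusted p.

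Regulators that switch these genes on and off did not pass either. Of 19 genes for E2F factors, the retinoblastoma family and the MuvB complex, 0 rose and 0 fell by the authors' Wald test. At the same threshold 3.06% of all tested genes were higher and 3.92% lower. Of the 19, 4 had an unadjusted p under 0.05, a share near the 21.8% of all tested genes. Tfdp1 and Tfdp2, the partners with which E2F proteins bind DNA, had -0.35 ± 0.15 (adjusted p = 0.133) and -0.58 ± 0.29 (0.219), and E2f5, a repressor-type E2F, had 0.20 ± 0.09 (0.193), as log2 fold change and SE in the authors' deposited table. Median log2 fold change over the list was 0.10.

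Markers of other cells that a sort can retain were set beside the mitotic genes, leukocytes first. Of 14 tested, 0 passed, 12 had positive values and 1 had an unadjusted p under 0.05, and the median log2 fold change was 0.72. Over all tested genes 6.98% passed in either direction, 52.7% had positive values and 21.8% had an unadjusted p under 0.05. The summed implied levels of the leukocyte markers were 27653 in Control and 64695 in HhipCKO. Lyz2 had a mean of 37908 in the authors' deposited table, out of 46174 summed over the list. Its log2 fold change was 1.53 ± 1.35 (SE). The sums therefore mostly follow Lyz2 and do not show a rise across the list. Ptprc, which encodes CD45, had 0.54 ± 0.55 (log2 fold change, SE) in the authors' deposited table. The 2 negative values of the list were those of Csf1r, -0.59 ± 0.39, and Cd3e, -0.75 ± 0.90. The median implied CV of the leukocyte markers was 61.1%, above the 42.8% of the mitotic genes. Of 6 tested chondrocyte markers 5 fell, against 3.92% of all tested genes, and the median of the 6 was -2.21. The summed implied levels of the chondrocyte markers were 24764 in Control and 5505 in HhipCKO. Epithelial markers had a median of 0.0098, but their summed implied levels were 102792 in Control and 218131 in HhipCKO, with the surfactant genes Sftpc and Sftpb at 1.41 ± 1.27 and 1.17 ± 1.30 (log2 fold change, SE) in the authors' deposited table. Endothelial markers had a median of -0.31 and summed implied levels of 14923 in Control and 13560 in HhipCKO. The 8 erythroid and megakaryocyte markers ran from -1.29 to 1.49, with sums of 37649 in Control and 16584 in HhipCKO. The globin genes Hba-a1, Hbb-bs, Hba-a2 and Hbb-bt had means of 8517, 7558, 5867 and 4350, out of 27116 summed over the list. These sums therefore mostly follow the globin genes, which had negative values. The megakaryocyte markers Pf4 and Ppbp had positive ones, 1.49 ± 0.86 and 1.28 ± 1.59 (log2 fold change, SE) in the authors' deposited table. Of the epithelial, endothelial, erythroid and megakaryocyte markers, 0 passed the threshold, and 1 had an unadjusted p under 0.05. The part of any of these cells in the values of the mitotic genes was not tested.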

How the data were processed

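Libraries of 4 HhipCKO and 4 Control samples were sequenced as bulk RNA. The submitters' processing notes name FastQC, STAR and DESeq, with GRCm38 (mm10) as the build. Tool versions, the counting step, its strand setting and its annotation are not given in the sources used here. In the authors' deposited table the headers name the mean normalized count of each gene (a signal averaged over libraries), the log2 fold change and its standard error in log2 units. The authors' deposited Wald score, p-value and adjusted p-value stand beside them. No column gives single libraries, so depth per library is unknown and the authors' own Wald test was used throughout.

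Members, lists and alternatives were chosen with earlier results of these data known. Members with the smallest adjusted p, the highest level per kilobase or the most extreme fold change, and 8 standard markers, are described in full. From the other lists, genes past the threshold or the 3 with the smallest adjusted p are named. Gene overlaps, pseudogenes, the neighbours of Mcm6 and the promoter windows printed were chosen after values were seen.

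Intervals of 95% assume a normal log2 fold change. Implied group levels assume equal library factors. Lengths came from GENCODE M21 on GRCm38, in which 31555 identifiers matched. The length trend was a lowess curve with a span of 0.3 (Python 3.11.15, statsmodels 0.14.6). Jpt1 and Sgo2a were matched by identifier. The calls and the removal of the length trend were tested on simulated data. The simulated estimates varied by exactly the deposited SEs. The calls were therefore not tested at the wider spread of the real Wald statistics, whose robust SD was 1.53. For the implied levels and spread, simulated SEs were computed by the same formula that was then inverted. That check covers the algebra only and does not show how accurate the implied CVs are.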

Additional observations from a re-analysis of the deposited data

How the results depend on the processing

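No member passed the threshold under any alternative run, namely median-centred fold changes, the length trend removed, no filter on low values, a mean count of at least 500 (11 members), Wald statistics divided by their robust SD of 1.53, and a 1.5-fold minimum. Division by the robust SD and the 1.5-fold minimum can only remove calls, so neither could have added a member. Over the alternatives, the lowest adjusted p among members was 0.391, with the length trend removed. The sign differed from the reported one for Mcm4 (-0.018) and Pcna (-0.011) with median-centred fold changes, and for Pcna (-0.124) with the length trend removed. Removing that trend moved Cenpf most, by 0.295, from 0.59 to 0.88, and Mki67 from 0.47 to 0.74. Both then lay above Bub1b, at 0.64. Other values fell, such as that of Ccnb2 from 0.27 to 0.14, and the mitotic median went from 0.32 to 0.27. The median of the mitotic genes lay between 0.27 and 0.32 over all 22, and was 0.47 with a mean count of at least 500, where Mki67 alone is left. For the replication genes the median lay between 0.036 and 0.095. Hhip passed under each alternative that was run for it, at log2 fold changes from -2.64 to -2.38. No paired analysis was possible because the table has no values per library, and libraries could not be left out in turn for the same reason. Precision rests on the authors' standard errors, and depth per library is unknown.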

Other observations

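Some genes of the cycle were too scarce for the authors' filter and were given no adjusted value. In the authors' deposited table Melk, a mitotic kinase, had a log2 fold change of 1.66 ± 0.98 (SE) at a mean normalized count of 36.9, and Depdc1a had 1.35 ± 1.14 at 34.1. Ska1, a protein of the outer kinetochore, had -1.07 ± 1.77 (SE) at a mean of 8.90 in the authors' deposited table. These genes were chosen after their values were seen.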
